A study of Homo sapiens with 17 samples.

Results

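The 9 genes described here govern how much cholesterol a cell makes, takes up, moves and releases: SREBF1, SREBF2, SCAP, INSIG1, INSIG2, STARD4, MYLIP, NR1H2 and ABCA1. They were picked by gene symbol, and each has 1 row among the 9699 transcripts of the expression table. The values are FPKM, that is, fragments per kilobase of transcript scaled to library size, for total polyadenylated RNA (RNA-Seq) and for RNA fragments protected by ribosomes (Ribo-Seq). Translation efficiency (TE) is the Ribo-Seq level divided by the RNA level of the same gene in the same condition.

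SREBF1 and SREBF2 encode the SREBP transcription factors, which are made as membrane proteins of the endoplasmic reticulum. When sterols are scarce, SCAP escorts them to the Golgi, where proteases release the part that enters the nucleus and switches on genes of lipid synthesis and uptake. When sterols are plentiful, INSIG1 and INSIG2 hold SCAP back. Excess sterol acts through the oxysterol receptors of the LXR family, to which NR1H2 (LXR beta) belongs, and whose known targets include ABCA1, the pump that exports cholesterol to lipid-poor apolipoprotein A-I, and MYLIP, a ubiquitin ligase that removes lipoprotein receptors from the cell surface. STARD4 carries cholesterol between membranes.

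The cells were BJ, a line of human foreskin fibroblasts immortalized with hTERT. Of 17 samples, 9 were RNA-Seq and 8 were Ribo-Seq. Proliferating cultures were grown under normal conditions (C1, C2 and C3). Quiescence (Q) was induced by removing serum. Pre-senescence (preS) and senescence (S) were BJ cells with hTERT and a RASG12V that 4-OHT-Tamoxifen switches on, kept in 10-7 M of the drug for 5 and 14 days. The transformed cells (Tr) carried hTERT, gene knockdowns that include p16INK4A, and SV40 small T, and received RASG12V from the retroviral vector pBabe-puro, so they differ from the other cultures in more than the oncogene. The table holds 12 columns, 6 per assay, and several are the authors' pooled value of 2 libraries: C1 with C2 (written C12) and Q in both assays, and preS for RNA-Seq. C12, Q and preS were sequenced in a first run, and C3, S and Tr in a second. There are no replicate columns, so no SD and no p-value can be given. The difference between the controls C3 and C12 is the only spread between cultures, and it holds run and culture together.

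Before any comparison, labels were set against the data. The Ribo-Seq samples titled S and C3 each carry the other's condition in the labels, and the titles, which match the table's columns, were followed. MKI67, a gene of dividing cells, was at the table's floor of 1.00 FPKM in S in both assays, with 43.97 (RNA) and 43.02 (Ribo-Seq) in C3, so the Ribo-Seq column S resembled the senescent RNA. CDKN2A, the gene of p16INK4A, had 12.64 FPKM of RNA in Tr against 6.75 in C3 and 17.19 in C12, and 5.51 of footprints against 8.92 in C3 and 13.00 in C12. Neither ratio to C3 passed the cut-off used for calls, while its TE was called lower in Tr (0.44 against 1.32 in C3). HRAS RNA was high in the proliferating columns too (2415.28 FPKM in C12 and 1283.52 in C3) and lowest in Tr (311.51). The Tr cells, which received RASG12V, were thus not marked by higher HRAS RNA. Against C3, CDKN2A RNA did not show their p16INK4A knockdown either. All 8 fibroblast markers had rows, with a summed RNA level between 4981.8 and 7182.3 FPKM over the 6 columns. No row of the table carried any of the 4 epithelial, 3 endothelial or 3 hepatocyte markers, and the leukocyte list had CD14 and CD68 but neither of its other genes, PTPRC and LYZ. In bulk samples fewer cells of a type and less RNA per cell cannot be told apart.

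Promoters are printed here for the 4 genes with the largest RNA change against the control of the same run. They show the sequence before the transcription start that contains known control elements of sterol genes. Each line holds the 250 bases before the start in RefSeq (GRCh38.p14), read 5′ to 3′ on the gene's strand. The windows lie at chr22:41832855-41833104 (plus strand) for SREBF2, chr7:155297628-155297877 (plus) for INSIG1, chr5:111512536-111512785 (minus) for STARD4 and chr9:104928156-104928405 (minus) for ABCA1. Capitals mark the core of the sterol regulatory element (TCACNCCAC), the CCAAT box (read as ATTGG where it lies on the other strand) and the E-box CACGTG.
SREBF2: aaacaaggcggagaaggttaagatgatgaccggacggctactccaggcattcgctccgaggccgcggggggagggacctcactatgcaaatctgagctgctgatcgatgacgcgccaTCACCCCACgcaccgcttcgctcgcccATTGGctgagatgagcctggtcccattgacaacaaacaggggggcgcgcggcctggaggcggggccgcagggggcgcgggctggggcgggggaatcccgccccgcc
INSIG1: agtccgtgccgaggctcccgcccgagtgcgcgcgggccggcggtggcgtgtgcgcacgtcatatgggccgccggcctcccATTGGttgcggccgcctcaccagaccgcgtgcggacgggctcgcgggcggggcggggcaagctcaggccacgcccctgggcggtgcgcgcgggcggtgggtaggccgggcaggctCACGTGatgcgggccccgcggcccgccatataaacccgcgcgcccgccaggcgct
STARD4: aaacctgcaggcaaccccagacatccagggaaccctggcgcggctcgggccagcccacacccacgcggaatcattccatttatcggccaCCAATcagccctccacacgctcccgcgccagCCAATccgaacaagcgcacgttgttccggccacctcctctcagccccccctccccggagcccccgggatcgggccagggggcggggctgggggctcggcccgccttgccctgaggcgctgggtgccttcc
ABCA1: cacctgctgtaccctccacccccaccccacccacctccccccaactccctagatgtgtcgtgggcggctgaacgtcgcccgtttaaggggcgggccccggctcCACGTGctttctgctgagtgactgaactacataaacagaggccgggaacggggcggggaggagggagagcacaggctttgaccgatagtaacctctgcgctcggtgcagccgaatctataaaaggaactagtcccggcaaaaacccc

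Motifs were searched on both strands in these windows and in the windows of all genes, 35116 in number. Of the 9 genes only SREBF2 held TCACNCCAC, at 133 to 125 bases before the start, followed by a CCAAT box on the other strand at 106 to 102 bases, and 0.883% of all windows held the element. The CCAAT box occurred in 32.0% of all windows and in those of SREBF2, INSIG1, STARD4 and MYLIP. STARD4 carried 2 copies, at 161 to 157 and at 130 to 126 bases. The E-box occurred in 6.34% of windows and in those of INSIG1 (55 to 50 bases), ABCA1 (147 to 142 bases) and SCAP. The GC box GGGCGG, not capitalised, occurred in 42.6% of windows and in those of all 9 genes. No searched motif overlapped another kind. These matches describe letters and were not tied to any binding measurement.

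By the sliding cut-off, more of the 9 genes were called in RNA and in Ribo-Seq after serum removal than in any other condition. In TE the counts in Q and preS, both directions together, were equal, 2 each. At a fixed cut-off of 1.5-fold, directions again together, preS had more calls than Q in Ribo-Seq (7 against 5) and in TE (5 against 3). Lower among these were MYLIP and NR1H2 in preS in both measures, and STARD4 in TE in preS and in Q. Of all 9699 transcripts that cut-off called 3743 in preS and 3953 in Q in Ribo-Seq, and 3553 and 2449 in TE. Each condition was set against the control of its own run. A gene was called where its log2 ratio exceeded a sliding cut-off, a fixed multiple, taken from the study's methods, of the SD of the log2 ratios of the 500 transcripts nearest in level. The cut-off is given in fold beside the calls, and rose and fell are used of called values alone. In quiescence the RNA of 5 of the 9 genes rose (SREBF1, SREBF2, INSIG1, INSIG2 and STARD4) and none fell, where 4.59% of all transcripts were called higher and 3.2% lower. The median RNA log2 ratio was 1.05 over the 9 genes and 0.00 over all transcripts. In Ribo-Seq 4 rose (SREBF1, SREBF2, INSIG1 and INSIG2), where 4.22% of all transcripts were called higher and 3.3% lower, and the median log2 ratio was 1.08 against -0.05 over all transcripts.

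**Figure D1:**
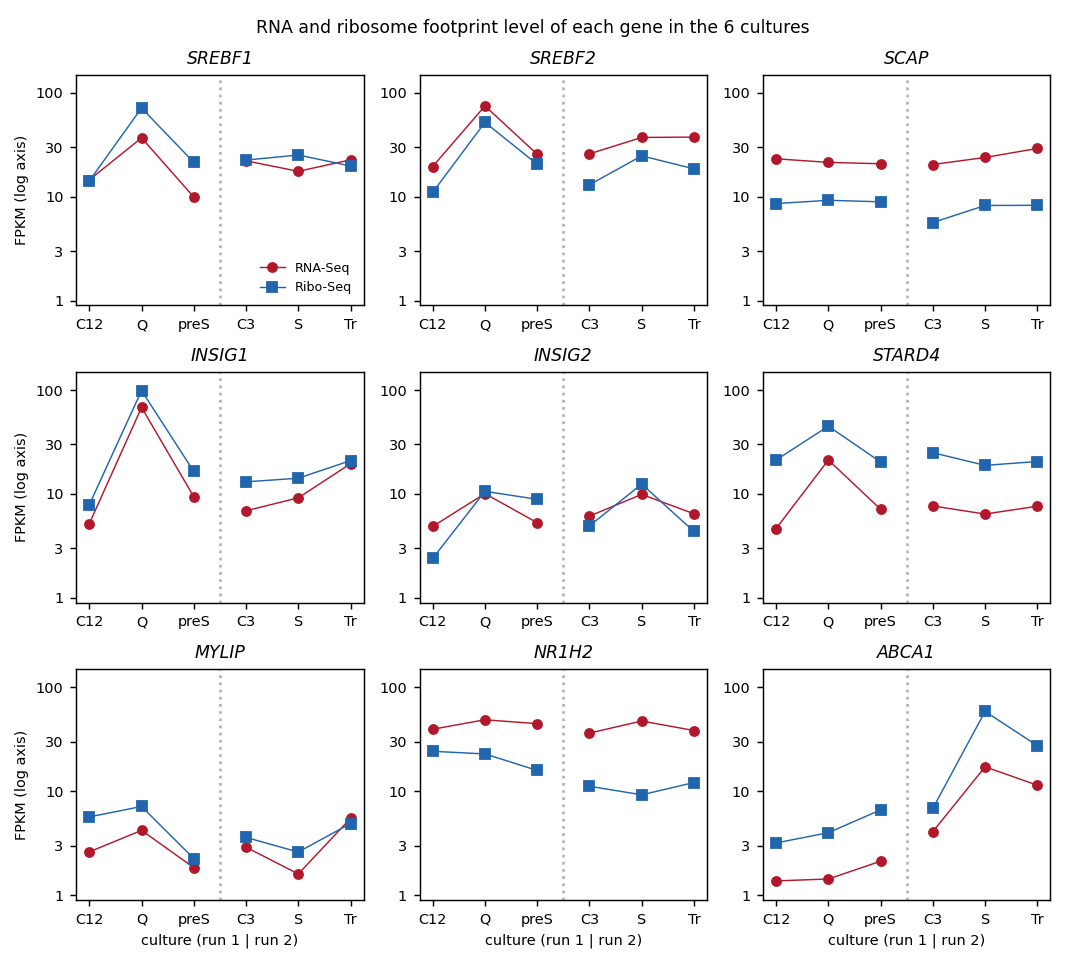
RNA-Seq (red circles) and Ribo-Seq (blue squares) level of each gene in FPKM on a log axis, with 1 panel per gene, 1 point per column and a dotted line between the sequencing runs. INSIG1 reaches 68.19 (RNA) and 98.84 (Ribo-Seq) in Q, and ABCA1 reaches 17.17 and 58.62 in S.

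**Figure D2:**
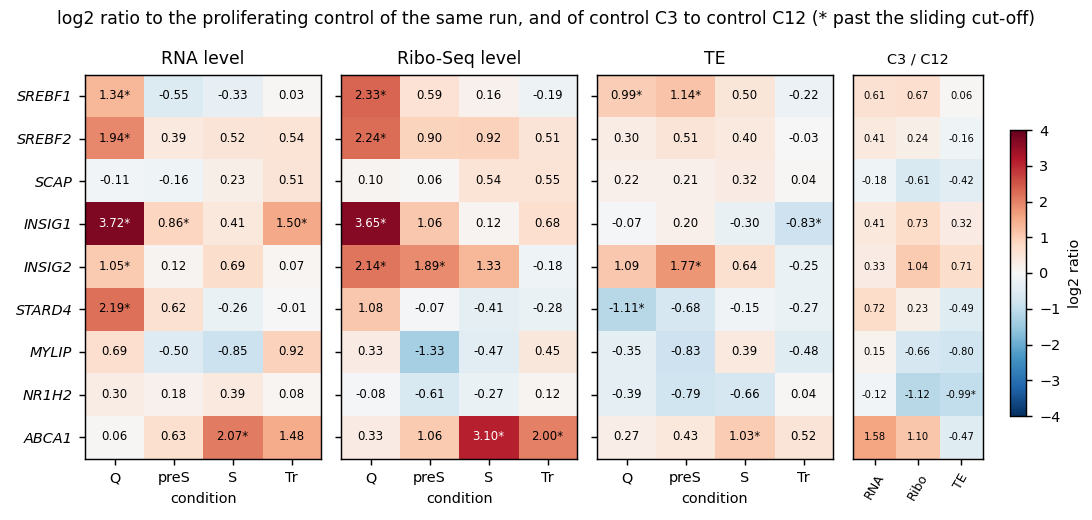
Log2 ratio of each gene to the control of its run for RNA, Ribo-Seq and TE in Q, preS, S and Tr, with the ratio of control C3 to control C12 at the right. Red is higher and blue lower, and an asterisk marks a ratio past the sliding cut-off, and most asterisks lie in the quiescence columns and in the ABCA1 row.

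The SREBP genes themselves both rose in quiescence. SREBF2 RNA was 19.54 FPKM in C12, 74.80 in Q and 25.61 in preS in the first run, and 25.87 in C3, 37.21 in S and 37.50 in Tr in the second. Q stood above every other column, while S and Tr differed from each other by less than C3 did from C12. The rise was 3.83-fold in RNA (cut-off 1.97-fold), rank 67 among all transcripts. SREBF2 footprints were 11.02 in C12, 51.99 in Q, 20.52 in preS, 13.04 in C3, 24.74 in S and 18.57 in Tr, and their rise in Q was 4.72-fold (cut-off 2.23-fold). TE of SREBF2 stayed low in every column, from 0.50 to 0.80, and no TE ratio of it passed a cut-off.

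SREBF1 combined a smaller RNA rise with a larger footprint rise. Its RNA was 14.53 FPKM in C12, 36.87 in Q, 9.93 in preS, 22.14 in C3, 17.57 in S and 22.65 in Tr. Q was again the highest and preS the lowest column, with C3 and Tr nearly equal. The Ribo-Seq levels were 14.21 in C12, 71.42 in Q, 21.41 in preS, 22.53 in C3, 25.22 in S and 19.76 in Tr. The rise in Q was 2.54-fold in RNA and 5.03-fold in Ribo-Seq. TE therefore rose from 0.98 in C12 to 1.94 in Q (1.98-fold, cut-off 1.70-fold). It rose also in preS, to 2.16 (2.21-fold, cut-off 2.08-fold), where RNA was at 0.68 and footprints at 1.51 of the control, neither past its cut-off. SREBF1 was the 1 gene of the 9 called higher in TE in Q by the sliding cut-off, where 2.69% of all transcripts were called higher and 5.56% lower. The TE ratio of INSIG2 in Q was larger (2.13-fold) but within its wider cut-off of 2.35-fold, and a fixed cut-off of 2-fold called INSIG2 and not SREBF1. The table follows 1 transcript per gene, so the SREBP-1a and SREBP-1c forms cannot be told apart. Set against the control of the other run, C3, SREBF1 RNA in Q was 1.67-fold higher (cut-off 1.98-fold) and its call was lost. The TE ratios changed little, to 1.90-fold in Q (cut-off 1.91-fold) and 2.12-fold in preS (cut-off 2.24-fold), and both lay just within the cut-offs of that comparison.

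SCAP, the escort, moved little. Its RNA lay between 20.42 FPKM in C3 and 29.16 in Tr, with 23.18 in C12, 21.42 in Q, 20.77 in preS and 23.89 in S. Its footprints lay between 5.65 in C3 and 9.24 in Q, with 8.60 in C12, 8.94 in preS, 8.24 in S and 8.27 in Tr. No SCAP ratio passed a cut-off in RNA, Ribo-Seq or TE in any condition. TE of SCAP, from 0.28 to 0.43, was below that of SREBF2 in every column.

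INSIG1 had the largest rise of the 9 genes. Its RNA was 5.18 FPKM in C12, 68.19 in Q and 9.40 in preS, and 6.89 in C3, 9.18 in S and 19.56 in Tr. Q exceeded the next column, Tr, by a wide margin, and Tr exceeded the remaining columns. The 13.2-fold rise in Q ranked 5 among 9699 transcripts, and the 12.5-fold rise in footprints (7.88 in C12, 98.84 in Q) ranked 8. Footprints in the other columns were 16.46 in preS, 13.09 in C3, 14.18 in S and 20.96 in Tr. TE in Q (1.45) was close to that in C12 (1.52). RNA of INSIG1 also rose in preS, by 1.82-fold with a cut-off of 1.70-fold, and in Tr, by 2.84-fold with a cut-off of 2.26-fold. In Tr its footprints were 1.60 times the control, within the cut-off of 2.69-fold, and TE fell from 1.90 in C3 to 1.07 (log2 ratio -0.83). The RNA call in preS and the TE call in Tr were lost against the control of the other run, where the ratios were 1.36-fold and 0.704, and at a fixed cut-off of 2-fold.

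INSIG2 shares the role of INSIG1. Its RNA was 4.87 FPKM in C12, 10.09 in Q, 5.29 in preS, 6.13 in C3, 9.91 in S and 6.45 in Tr. Its footprints were 2.40 FPKM in C12, 10.61 in Q, 8.89 in preS, 4.94 in C3, 12.44 in S and 4.36 in Tr. Q and S were the high columns in both assays, and preS was high in footprints alone. In Q the RNA rose by 2.07-fold (cut-off 1.90-fold) and the footprints by 4.42-fold, past their cut-off. In preS the footprints rose by 3.70-fold (cut-off 3.49-fold) with RNA at 1.09 of the control, so that TE rose from 0.49 to 1.68 (3.41-fold, cut-off 2.91-fold). The S ratios, 1.62-fold in RNA and 2.52-fold in Ribo-Seq, did not pass. The C12 footprint level was the lowest of the 9 genes, C3 stood at 2.06 times C12 in footprints, and against C3 the INSIG2 calls in Q and preS were all lost. The ratios were then 1.65-fold in RNA and 2.15-fold in footprints in Q, and in preS 2.09-fold in TE, with a footprint log2 ratio of 0.85.

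STARD4 rose in RNA in Q without a called rise in footprints. The RNA was 4.65 FPKM in C12, 21.24 in Q, 7.13 in preS, 7.67 in C3, 6.41 in S and 7.63 in Tr. Outside Q every column lay between the values of the controls. Footprints were 21.24 in C12, 44.91 in Q, 20.31 in preS, 24.96 in C3, 18.85 in S and 20.54 in Tr. The RNA rise in Q was 4.57-fold (cut-off 1.81-fold), and the footprint ratio was 2.11-fold, within the cut-off of 2.25-fold. TE fell in Q from 4.57, the highest TE of the 9 genes in C12, to 2.11 (log2 ratio -1.11). Against the control of the other run the TE ratio was 0.65 and this call was lost, and at a fixed cut-off of 2-fold the footprint ratio passed.

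**Figure D3:**
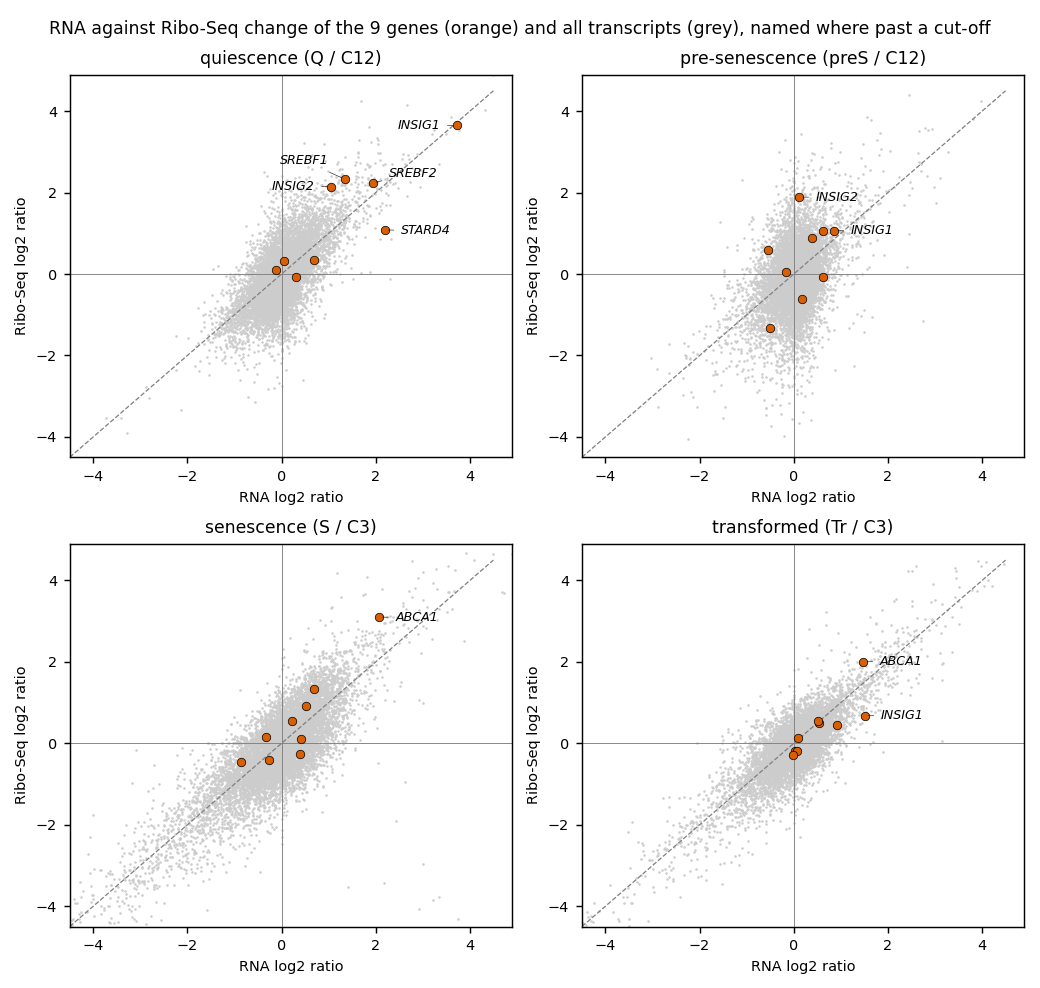
RNA log2 ratio (x axis) against Ribo-Seq log2 ratio (y axis) for all transcripts in grey and the 9 genes in orange, with 1 panel per condition, a dashed line where both are equal and names on genes past a cut-off in either assay. SREBF1 and INSIG2 lie above the line in Q and STARD4 below it, and ABCA1 lies above it in S and Tr.

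ABCA1, the cholesterol exporter, changed in other conditions than the SREBP group. Its RNA was 1.37 FPKM in C12, 1.43 in Q and 2.12 in preS, close to the floor, and 4.09 in C3, 17.17 in S and 11.42 in Tr. The footprints were 3.18 in C12, 3.99 in Q, 6.61 in preS, 6.84 in C3, 58.62 in S and 27.43 in Tr. S and Tr stood above all other columns in both assays, but the controls of the runs differed too, by 2.99-fold in RNA and 2.15-fold in footprints.

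In senescence ABCA1 was the only one of the 9 genes called, higher in RNA by 4.20-fold (cut-off 2.75-fold), in footprints by 8.57-fold (cut-off 3.56-fold, rank 51) and in TE, from 1.67 in C3 to 3.41 in S (2.04-fold, cut-off 1.89-fold). The shares of all transcripts called higher were 2.32% in RNA, 2.54% in Ribo-Seq and 2.62% in TE, and the shares called lower 5.32%, 5.38% and 4.46%. In Tr the footprints rose by 4.01-fold (cut-off 2.97-fold), where 2.61% of all transcripts were called higher and 3.78% lower. The RNA ratio in Tr, 2.79-fold, did not reach the cut-off of 2.93-fold, but passed with a window of 200 transcripts, on the log2(FPKM + 1) scale, at fixed cut-offs of 1.5-fold and 2-fold, and against C12. TE in Tr was 1.44 times that in C3 (cut-off 1.68-fold). Against C12 the TE ratio in S was 1.47-fold and its call was lost, and the RNA and footprint calls in S remained. The S cells differed from C3 by state, the RASG12V construct and the drug together, which cannot be told apart.

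Markers moved beside the ABCA1 result. In S the summed RNA of the 8 fibroblast markers was 4981.8 FPKM against 7182.3 in C3. Against C3, 5 of them fell (COL1A1, COL1A2, COL3A1, FN1 and PDGFRB), which were read after their values were seen. Of all transcripts 5.32% were called lower. COL1A1, COL1A2 and COL3A1 were also higher in C3 (1328.21, 1611.11 and 213.71 FPKM) than in C12 (371.15, 384.36 and 55.92). COL1A2 in S, at 531.34, lay above C12, and the others that fell lay below it. VIM, the largest part of the sum, was not called and was higher in S (3942.76) than in C3 (2955.66). The part of these markers in the ABCA1 result was not tested. CD14 and CD68, the leukocyte markers with rows, summed to 39.3 FPKM in S, the lowest of the 6 columns, and 73.8 in C3.

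NR1H2 and MYLIP gave no call against a same-run control. NR1H2, the receptor, had RNA of 39.52 FPKM in C12, 48.72 in Q, 44.68 in preS, 36.27 in C3, 47.39 in S and 38.40 in Tr, with a smaller ratio of highest to lowest than any other of the 9 genes. Its footprints were 24.22 in C12, 22.86 in Q, 15.85 in preS, 11.16 in C3, 9.24 in S and 12.12 in Tr. All columns of the second run were lower in footprints than those of the first. TE of C3 (0.31) was below that of C12 (0.61), past the cut-off of 1.95-fold, and was the only call among the 9 genes between the controls, where 6.68% of transcripts in RNA, 7.02% in Ribo-Seq and 7.41% in TE were called in either direction. Set against C12, the TE of NR1H2 in S was 0.318 times the control and was called lower (cut-off 2.56-fold). That ratio includes the difference between the controls.

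MYLIP had the lowest RNA level of the 9 genes in preS, C3, S and Tr. Its RNA was 2.61 FPKM in C12, 4.20 in Q, 1.84 in preS, 2.89 in C3, 1.60 in S and 5.48 in Tr. The footprints were 5.66 in C12, 7.13 in Q, 2.25 in preS, 3.59 in C3, 2.60 in S and 4.89 in Tr. The largest ratios, 1.90-fold in RNA in Tr and 0.40 of the control in Ribo-Seq in preS, lay within the wide cut-offs at this level, 3.34-fold and 4.46-fold. In S, where ABCA1 rose, MYLIP RNA was at 0.55 and its footprints at 0.72 of C3, neither past a cut-off.

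In preS few of the 9 genes were called by the sliding cut-off. It called 1 higher in RNA (INSIG1), where 3.11% of all transcripts were, 1 in Ribo-Seq (INSIG2, 2.47%) and 2 in TE (SREBF1 and INSIG2, 2.0%). None was called lower, where 3.51%, 4.84% and 6.51% of all transcripts were. A fixed 1.5-fold called, in either direction, 3, 7 and 5 of the 9 in RNA, Ribo-Seq and TE in preS, and 1191, 3743 and 3553 of all transcripts. MYLIP and NR1H2 were the lower ones in Ribo-Seq, and STARD4, MYLIP and NR1H2 in TE. The preS cells differed from C12 by the RASG12V construct and the drug together, which cannot be told apart. In Tr 1 was called higher in RNA (INSIG1, 2.96% of all transcripts higher and 3.13% lower) and 1 lower in TE (INSIG1, 5.58% lower and 2.35% higher). The cut-offs of the 9 genes were wider in S, from 2.29-fold to 4.24-fold in RNA, than in Q, from 1.81-fold to 2.19-fold, so an equal ratio could be called in Q and not in S.

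Comparing conditions of the same run directly, a choice made after the data were seen, gave ratios that do not pass through a control. SREBF1, SREBF2, INSIG1 and STARD4 were lower in RNA in preS than in Q, where 4.45% of transcripts were called lower. SREBF1, SREBF2 and INSIG1 were also lower in Ribo-Seq (5.0%), and none of the 9 was called in TE, where 7.95% of transcripts were called in either direction. The INSIG1 difference was the largest, 7.25-fold in RNA and 6.01-fold in footprints. Between S and Tr none of the 9 genes was called in RNA, Ribo-Seq or TE, where 7.88%, 7.43% and 6.89% of transcripts were called in either direction. ABCA1 footprints were 2.14 times higher in S than in Tr (cut-off 3.33-fold).

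The other genes of the pathway were read from fixed lists. These were chosen with earlier results of these data known, so their counts are a description and no independent support. Of 21 enzymes of cholesterol synthesis with rows, 19 rose in RNA in Q and 19 in Ribo-Seq, with median log2 ratios of 2.30 and 2.22. Over all transcripts 4.59% were called higher in RNA and 4.22% in Ribo-Seq. HMGCS1, which makes the mevalonate precursor HMG-CoA, went from 6.82 to 93.24 FPKM (13.7-fold). MSMO1, a sterol demethylating oxidase, went from 8.46 to 85.50 (10.1-fold), and DHCR7, which acts in the last part of the pathway, from 22.65 to 214.05 (9.45-fold). TM7SF2, a sterol reductase, was at the floor of 1.00 in C12 and at 20.05 in Q, so no fold is given. In preS 7 of the 21 rose in RNA and 7 in Ribo-Seq, where 3.11% and 2.47% of all transcripts were called higher. In S none rose in RNA (2.32% of all transcripts) and 2 in Ribo-Seq (SQLE and MSMO1, 2.54%). In Tr 3 rose in RNA (ACAT2, HMGCS1 and IDI1, 2.96%) and none in Ribo-Seq (2.61%). None of the 21 fell in either assay. SQLE, ACAT2 and IDI1 were named after their values were seen.

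Of 14 genes of fatty acid synthesis, 11 rose in RNA in Q and 7 in Ribo-Seq, beside 4.59% and 4.22% of all transcripts, and none fell, beside 3.2% and 3.3%. SCD, the stearoyl-CoA desaturase, went from 49.37 to 595.29 FPKM in RNA (12.1-fold). FADS2, another desaturase, went from 47.31 to 348.51 (7.37-fold), ACSS2, an acetyl-CoA synthetase, from 10.36 to 66.83 (6.45-fold), and LPIN1, a phosphatidate phosphatase, from 11.70 to 54.75 (4.68-fold). The 18 genes of SREBP transport, cleavage and sterol-regulated degradation include the proteases MBTPS1 and MBTPS2 and the COPII coat. None had an RNA call in any of the 4 conditions, and their median log2 ratio in Q was 0.05. Of all transcripts 4.59%, 3.11%, 2.32% and 2.96% were called higher in Q, preS, S and Tr. The shares called lower were 3.2%, 3.51%, 5.32% and 3.13%, so no call among 18 genes is near the background. MBTPS1 RNA was 38.46 FPKM in C12 and 47.40 in Q, and MBTPS2 RNA was 12.56 and 11.84. In Ribo-Seq PAQR3 was called higher in Q and preS (4.22% and 2.47% of all transcripts) and ERLIN1 lower in preS (4.84%). In TE SYVN1 and PAQR3 were called higher in Q, PAQR3 in preS and RNF139 in S (2.69%, 2.0% and 2.62% of all transcripts). All of these were named after their values were seen. PAQR3 footprints were at the floor of 1.00 in C12, 7.02 in Q and 7.33 in preS, but 6.69 in the other control, C3. ERLIN1 footprints were 139.39 in C12 and 73.06 in preS, and 96.48 in C3.

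**Figure D4:**
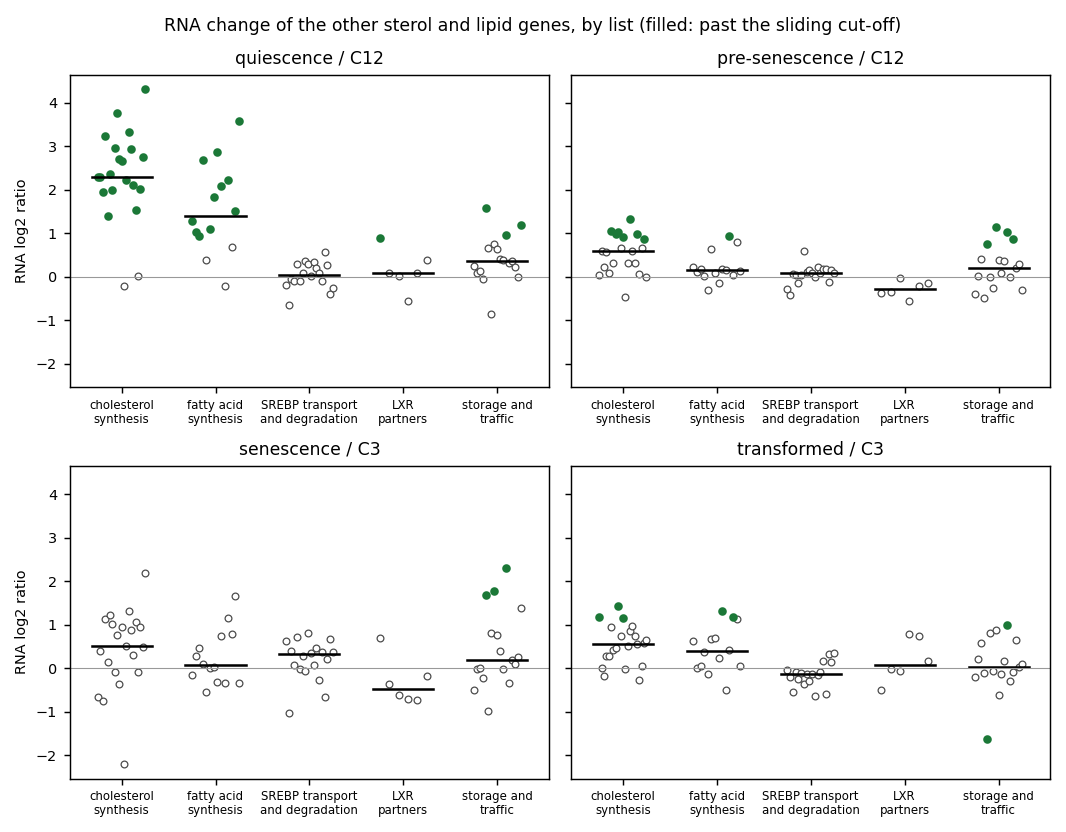
RNA log2 ratio to the same-run control (y axis) of every gene of the 5 fixed lists, with 1 panel per condition, 1 circle per gene, filled circles past the sliding cut-off and a bar at each list's median. In Q 19 of 21 cholesterol synthesis genes and 11 of 14 fatty acid synthesis genes are filled, and the SREBP transport and degradation list has none in any panel.

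The list of LXR partners and targets included RXRA, RXRB, LPCAT3, NCOA1 and NCOR1. LPCAT3, a phospholipid acyltransferase and known LXR target, rose in RNA in Q from 12.15 to 22.73 FPKM (1.87-fold), where 4.59% of all transcripts were called higher. None of these 5 genes was called in RNA in preS, S or Tr. Of all transcripts 3.11%, 2.32% and 2.96% were called higher there and 3.51%, 5.32% and 3.13% lower, so no call among 5 genes is near the background. LPCAT3 RNA was 22.56 FPKM in S and 13.85 in C3, a 1.63-fold ratio within its cut-off. Its footprints in S were 37.17 against 18.59, which also did not pass.

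Of 17 genes of sterol storage and intracellular traffic, 3 rose in RNA in Q, 4 in preS, 3 in S and 1 in Tr, and 1 fell in Tr. Of all transcripts 4.59%, 3.11%, 2.32% and 2.96% were called higher in these conditions and 3.13% lower in Tr, so 1 of 17 in Tr is near the background. SCARB1, the HDL receptor, rose in RNA in all 4 conditions against the control of the same run. Its RNA was 8.23 FPKM in C12, 15.94 in Q, 16.72 in preS, 15.70 in C3, 77.28 in S and 31.08 in Tr. Its levels in Q and preS were thus close to that of C3. The controls differed by 0.93 on the log2 scale, beside log2 ratios of 0.95 in Q and 1.02 in preS. LIPA, the lysosomal acid lipase, rose in Q, preS and S and fell in Tr, with RNA of 12.75 in C12, 38.32 in Q, 21.70 in preS, 56.24 in C3, 181.50 in S and 18.12 in Tr. Between the controls LIPA differed by 2.14 on the log2 scale, more than it did between any condition and its own control. VLDLR, a lipoprotein receptor, rose in RNA in Q from 4.24 to 9.63 (2.27-fold). NPC1, which exports cholesterol from lysosomes and was named after its values were seen, rose in preS to 63.74 FPKM from 28.88 in C12 and in S to 48.85 from 14.34 in C3. In Ribo-Seq 4 of the 17 rose in each of Q, preS and S, beside 4.22%, 2.47% and 2.54% of all transcripts. In Tr 1 rose and 1 fell (2.61% and 3.78%). Those that rose in S were SCARB1 (8.7-fold), NPC1 (6.3-fold), LIPA (5.8-fold) and VLDLR (4.0-fold).

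The patterns nearest to those of SREBF2 and ABCA1 were ranked by Pearson's r over the 8 log2 ratios (4 conditions in 2 assays) among transcripts whose ratios had an SD of at least 0.5 times that of the gene itself, as a description, since ratios within a run share a control and no p is given. Among 5905 transcripts, those nearest to SREBF2 included PBXIP1 (r = 0.989), CTSF (0.986), EBP (0.981), an isomerase of cholesterol synthesis, and SREBF1 (0.970). INSIG1 (0.890), STARD4 (0.752) and INSIG2 (0.711) followed at ranks 89, 374 and 465. Among 3260 transcripts, those nearest to ABCA1 were PCDH9 (0.990), TMEM206 (0.989), KIAA0090 (0.984), LRRC17 (0.977) and HBEGF (0.972). The r of ABCA1 with SREBF2 was -0.566, and with STARD4 -0.841.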

How the data were processed

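RNA-Seq and Ribo-Seq libraries were sequenced on Illumina HiSeq machines. Per the study's methods, the authors aligned reads with Bowtie to Ensembl protein-coding transcripts, kept uniquely mapped reads and 1 transcript per gene, and deposited FPKM values, counted over the whole transcript for RNA-Seq and over the coding sequence for Ribo-Seq. Values under 1.0 were set to 1.0, and only transcripts with enough reads in both assays were kept. The submitters' processing notes name hg19. The sequencing run comes from the study's supplement, which also states that the RNA libraries of the second run were not paired-end, unlike those of the first, so library type and run cannot be told apart. Whether counting used strand is not given in the sources used here.

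The 12 deposited FPKM columns were used as given. No read counts per transcript come with the table. The study's supplement gives the reads of each library, but counts per transcript were not derived from them, so no interval is given. Floors (1.0), pooled columns and a lack of replicate columns left no test. Log2 ratios without a pseudocount were called past a multiple of the local SD (window of 500 transcripts nearest in mean log2 level), a cut-off after the study's own. On simulated data it was tried only on genes above 5 FPKM and on changes larger than some of those called here. That trial does not cover calls at lower levels or of smaller changes. A call is a description and not a significance test. Alternatives were other fixed cut-offs (1.5-fold and 2-fold), a window of 200, log2(FPKM + 1), a minimum of 5 FPKM, centring on the median ratio and the control of the other run.

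The 9 genes and the lists were chosen with earlier results of these data known. Named were the 9 genes, the check genes, from each list the 4 genes at most with the largest RNA log2 ratio in quiescence past the cut-off, and the 5 patterns nearest to SREBF2 and to ABCA1 among transcripts at 5 FPKM or more in an RNA column, never at the floor, and with an SD over the 8 ratios of at least 0.5 times that of SREBF2 or ABCA1, so the rankings differ in size. Of the 9 genes all had promoter windows in RefSeq (GRCh38.p14). Some items are not reported here. The scripts ran under Python 3.11.15 with numpy 2.4.6, pandas 2.3.3 and matplotlib 3.10.9.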

Additional observations from a re-analysis of the deposited data

How the results depend on the processing

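No paired analysis was possible because the table gives 1 column per condition and assay, so the replicate numbers in the labels belong to no separate column, and for the same reason no replicate could be left out. No called ratio of the 9 genes changed sign under log2(FPKM + 1), centring on the median ratio or the control of the other run. Centring changed no call. The median of all transcripts lay beyond 0.1 on the log2 scale from 0 in Ribo-Seq in preS and S (-0.103 in both) and in TE in preS (-0.125).

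Counts of called genes among the 9, in either direction, are given here where they left 1.5 times the reported count. With the control of the other run they were 3 in RNA in Q, 0 in RNA in preS, 2 in RNA in Tr, 0 in Ribo-Seq in preS, and 0 in TE in Q, preS and Tr. This control shifts each ratio by the difference between the controls, by construction. In TE in S it kept the count of 1 but lost ABCA1 and gained NR1H2. With at least 5 FPKM in both columns they were 3 in RNA in Q, 0 in RNA in S, 0 in Ribo-Seq in preS, and 1, 1 and 0 in TE in Q, preS and S, since the called genes under 5 FPKM left the count. A window of 200 transcripts or log2(FPKM + 1) gave 2 in RNA in Tr, with ABCA1 added. A fixed 1.5-fold gave 3 in RNA in preS, S and Tr, 7, 3 and 2 in Ribo-Seq in preS, S and Tr, and 5 and 3 in TE in preS and S, beside 6, 5 and 3 in Q in RNA, Ribo-Seq and TE. A fixed 2-fold gave 0 and 2 in RNA in preS and Tr, 4 and 2 in Ribo-Seq in preS and S, and 0 in TE in Tr. In TE in Q it kept the count of 2 but lost SREBF1 and gained INSIG2.

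Over all transcripts the sliding cut-off called 755, 642, 741 and 591 in RNA in Q, preS, S and Tr, 729, 709, 768 and 620 in Ribo-Seq and 800, 825, 687 and 769 in TE. A fixed 1.5-fold called 1881, 1191, 3959 and 2381 in RNA, 3953, 3743, 4821 and 2820 in Ribo-Seq and 2449, 3553, 3048 and 1531 in TE. A fixed 2-fold called 365, 1945 and 991 in RNA in preS, S and Tr, 1656, 1688, 2669 and 1223 in Ribo-Seq, and 1410 and 330 in TE in preS and Tr. Read counts per transcript were not derived, so how far counting error alone moves the low values (ABCA1 in the first run, MYLIP, INSIG2) was not estimated.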
